A study of Mus musculus with 6 samples.

Results

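The 33 genes described here are markers of radial glia together with genes of the Notch, Id and Gli pathways. They were picked by symbol from a table of read counts for 24391 gene symbols, all 33 symbols were found, and all 33 passed the filter on low counts that left 15925 genes for testing. RNA came from hemibrains of newborn mice at postnatal day 0. The groups were 3 hemibrains labelled Celf2 -/- (replicates 2, 4 and 10) and 3 labelled Celf2 +/- (replicates 6, 7 and 11). CELF2 is a protein that binds GU-rich RNA. No wild-type brains are among the samples, so both groups lack at least 1 Celf2 allele, and the labels name no strain, sex, litter or kind of null allele.

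Radial glia are the stem and progenitor cells that line the ventricles of the embryonic brain. Their long fibres guide migrating neurons, and around birth many of them turn into astrocytes, ependymal cells or adult stem cells. Notch receptors on radial glia are activated by Delta and Jagged ligands on neighbouring cells, after which the cleaved receptor joins the DNA-binding protein RBPJ and switches on Hes and Hey repressors that hold back neurogenesis. Id proteins, downstream of bone morphogenetic proteins, block neurogenic bHLH factors, and Gli proteins carry the hedgehog signal.

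Library totals ran from 28831997 to 36531980 counts. Ribosomal precursor RNA (Rn45s) made up 11.8% of Celf2 -/- replicate 2, against 0.194% to 1.27% of every other library. That library also stood apart over all tested genes. On the first principal component, the main axis of variation in log2 CPM, it lay at -40.6 and the others between -0.641 and 22.2. Celf2 transcript was at 390 ± 58.4 CPM (counts scaled to library size, with factors from the trimmed mean of M-values) in Celf2 -/- hemibrains and 408 ± 48.5 CPM in Celf2 +/- hemibrains (SD, n = 3 each). An exact permutation test of these values, two-sided, gave p = 0.7, where 3 against 3 cannot go below 0.1. A whole-gene total does not check a deletion of some exons, so each direction below rests on the genotype labels. In bulk tissue, fewer cells of a type and less RNA per cell cannot be told apart. Neuronal genes were read as a check for neural tissue. Tubb3, Map2, Snap25, Stmn2, Dcx and the other 4 neuronal markers fixed for this check were counted in all 6 libraries, as was Rbfox3. Such counts do not show which region was taken or that the dissections matched.

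None of the 33 genes passed the test. With edgeR's quasi-likelihood test and Benjamini-Hochberg adjustment over all 15925 genes, 0 members were called in either direction at 0.05, against 0.00628% of all genes (1 gene). At an unadjusted p under 0.05 there were 3 members with higher values in Celf2 -/- hemibrains, Tnc, Notch2 and Ptprz1, against 4.13% of all genes in that direction, and 1 with lower values, Ttyh1, against 2.93%. In either direction that is 4 of 33, against 7.06% of all genes. DESeq2 called 0.402% of all genes and 0 members, and its smallest adjusted p among the members was 0.109, for Tnc. The median log2 fold change, Celf2 -/- over Celf2 +/-, was -0.02 over the members and -0.001 over all genes tested, with 15 members positive and 18 negative.

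The counts behind these values ran from 190 to 26297 per gene and library. Fold changes lay between 0.834 and 1.27. For 32 of 33 members the 95% interval of the fold change stayed within 1.5-fold either way, and for all 33 within 2-fold. Hes5 was the exception, with an interval of 0.626 to 1.12. The median coefficient of variation over the members was 11.2% among Celf2 -/- and 8.72% among Celf2 +/- hemibrains. Over all genes tested it was 10.8% among Celf2 -/- and 9.52% among Celf2 +/- hemibrains. A p above the threshold does not show that the groups were alike, and the intervals give the sizes that these 6 libraries leave possible.

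Levels per kilobase of gene model differed much more between members than between genotypes. Fabp7, the lipid carrier known as brain lipid-binding protein, was the most abundant at 746 ± 77.1 CPM per kilobase in Celf2 -/- and 829 ± 147 in Celf2 +/- hemibrains. The intermediate filament Vim was next in Celf2 -/- hemibrains (148 ± 15.8, against 137 ± 11.99 in Celf2 +/-), ahead of the acyl-CoA-binding protein Dbi (140 ± 11.9 in Celf2 -/-, 146 ± 16.9 in Celf2 +/-). In Celf2 +/- hemibrains Dbi stood above Vim, and the difference between these neighbours was within their spread. Gli2 was the lowest at 1.13 ± 0.115 CPM per kilobase in Celf2 -/- and 1.14 ± 0.168 in Celf2 +/- hemibrains. Ttyh1, Ptprz1, Mfge8, Slc1a3 and Id4 all lay between 64.0 and 87.7 CPM per kilobase in both groups.

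**Figure D1:**
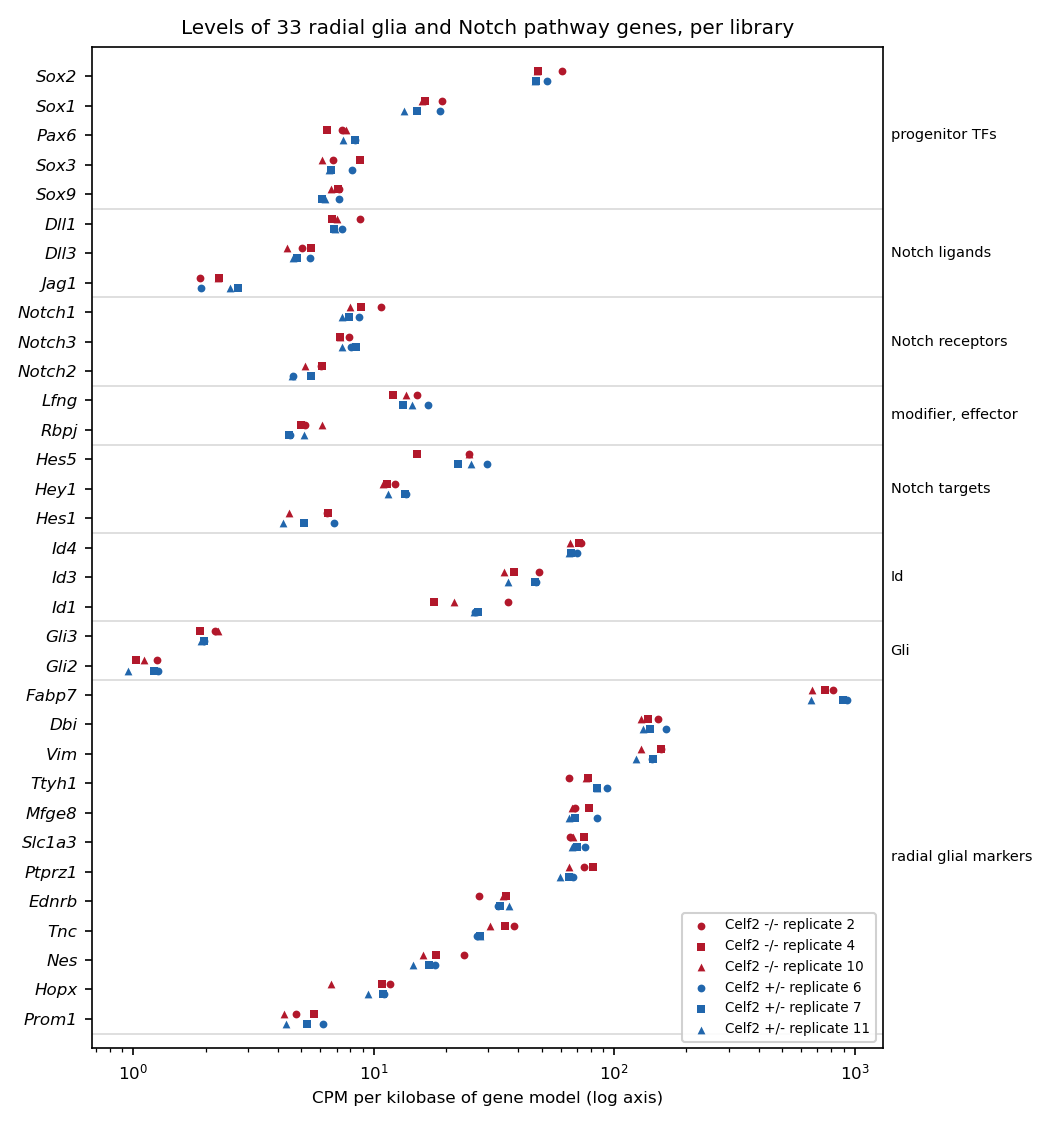
CPM per kilobase of gene model (log axis) of the 33 genes, with 1 point per library and Celf2 -/- points drawn above Celf2 +/- points, ordered by role and level. Levels run from about those of Gli2 (1.13 CPM per kilobase) to those of Fabp7 (746 in Celf2 -/- hemibrains), while the points of the 2 genotypes overlap for 31 of 33 genes.

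A matrix protein of radial glia, Tnc, had the most positive value of the members, and a receptor phosphatase that binds it, Ptprz1, was also positive. Tnc, the matrix glycoprotein tenascin C that surrounds radial glia, was at 273, 249.8 and 217 CPM in Celf2 -/- replicates 2, 4 and 10, against 190.1, 197 and 196 CPM in Celf2 +/- replicates 6, 7 and 11. The groups did not overlap, and the lowest Celf2 -/- library was replicate 10. Other genes are given with the replicates of each genotype in the same order. The fold change was 1.27 (95% interval 1.11 to 1.44; log2 0.34, SE 0.08, edgeR adjusted p = 0.456), rank 67 of all genes by p. Ptprz1, a receptor phosphatase whose extracellular part binds tenascins, was at 602, 659.9 and 522 CPM in Celf2 -/- hemibrains, against 547, 523 and 479.95 CPM in Celf2 +/- hemibrains. Its groups overlapped through Celf2 -/- replicate 10 (log2 0.20, SE 0.09, edgeR adjusted p = 0.699), and its log2 fold change was 0.12 without Celf2 -/- replicate 4.

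Ttyh1 was the member with the most negative value. This tweety-family membrane protein is abundant in neural stem cells and astrocytes. It was at 199, 239 and 233 CPM in Celf2 -/- replicates 2, 4 and 10, against 287, 259 and 259 CPM in Celf2 +/- replicates 6, 7 and 11. The groups did not overlap, with Celf2 -/- replicate 2 lowest and Celf2 +/- replicate 6 highest. The fold change was 0.834 (95% interval 0.734 to 0.947; log2 -0.26, SE 0.08, edgeR adjusted p = 0.550). Tnc and Ttyh1 were the 2 members of 33 whose groups did not overlap, against 12.7% of all genes tested. By direction this was 1 member higher, against 6.21% of all genes, and 1 lower, against 6.47%. Their direction held in all 6 fits that left out a library, with log2 fold changes of 0.26 to 0.43 for Tnc and -0.31 to -0.18 for Ttyh1.

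The other radial glial markers had intervals that include no change. Nes, the intermediate filament nestin, was at 145, 111 and 98.4 CPM in Celf2 -/- hemibrains, against 109.8, 104 and 89.2 CPM in Celf2 +/- hemibrains. Celf2 -/- replicate 10 fell within the Celf2 +/- range. Celf2 -/- replicate 2 was the highest by a wide margin, and the log2 fold change of 0.22 was 0.05 without replicate 2. Fabp7 was at 622, 577 and 506 CPM in Celf2 -/- hemibrains, against 707, 685 and 503 CPM in Celf2 +/- hemibrains. Replicates 10 and 11, 1 of each genotype, were the low libraries for Fabp7 (log2 -0.15, SE 0.13, edgeR adjusted p = 0.882). Vim had a log2 fold change of 0.11, the glutamate transporter Slc1a3 (GLAST) -0.03, and Prom1, the apical membrane protein prominin, -0.11. The endothelin receptor Ednrb was at -0.08, the secreted bridging protein Mfge8 at -0.03 and Dbi at -0.06. Hopx, a homeodomain-only protein that marks outer radial glia in primates, was at 17.6, 16.4 and 10.1 CPM in Celf2 -/- hemibrains, against 16.7, 16.5 and 14.2 CPM in Celf2 +/- hemibrains. Its value of -0.11 was 0.10 without Celf2 -/- replicate 10.

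**Figure D2:**
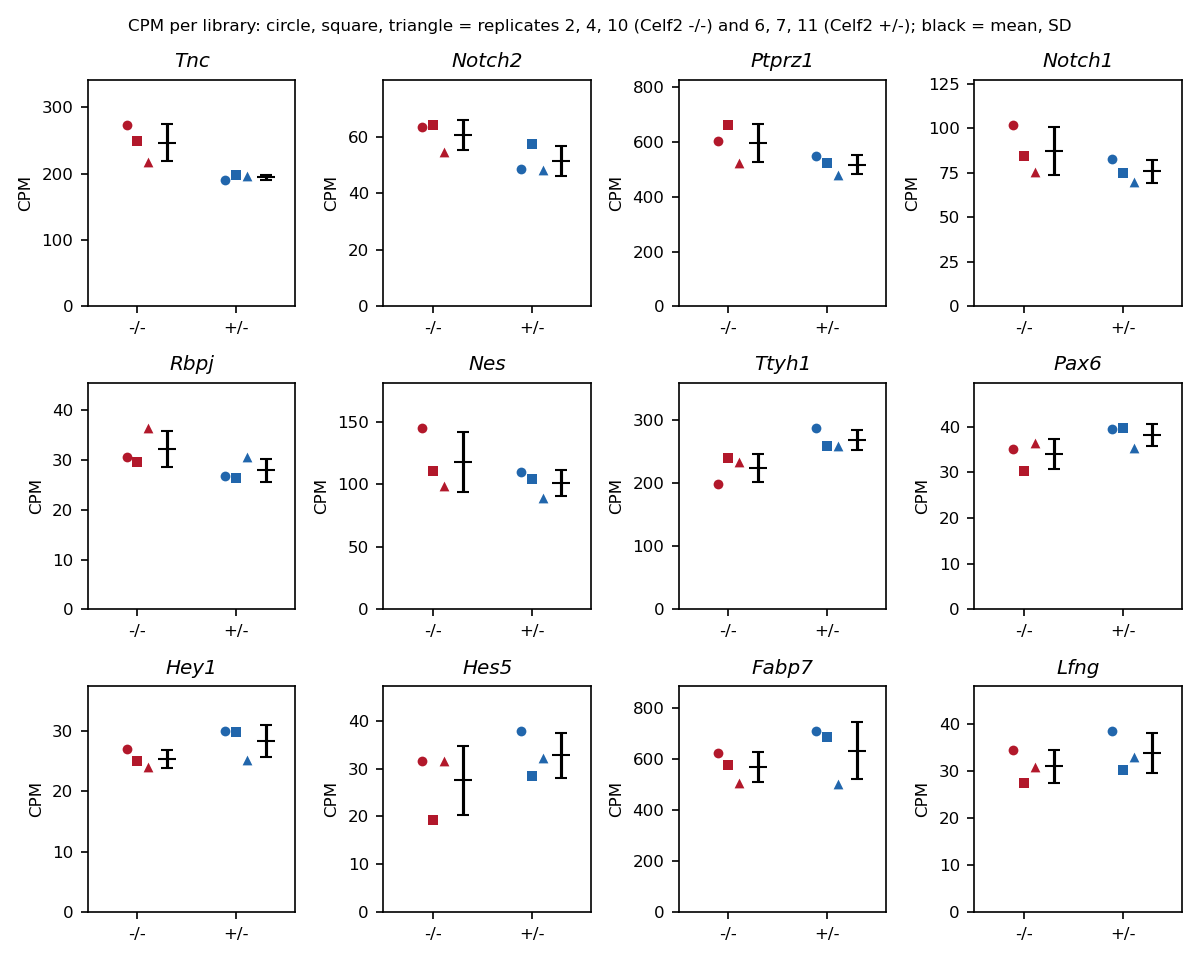
CPM per library, on axes from 0, of 12 members, the 6 with the smallest unadjusted p among positive fold changes and the 6 with the smallest among negative ones, Celf2 -/- left of Celf2 +/-, with mean and SD (n = 3) in black. The groups separate for Tnc (217 to 273 CPM in Celf2 -/-, 190.1 to 197 CPM in Celf2 +/-) and Ttyh1 (199 to 239 CPM in Celf2 -/-, 259 to 287 CPM in Celf2 +/-) and overlap for the other 10.

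Among Notch receptors, Notch1 and Notch2 had positive values and Notch3 a negative one. Notch2 was at 63.3, 64.0 and 54.4 CPM in Celf2 -/- hemibrains, against 48.5, 57.4 and 48.0 CPM in Celf2 +/- hemibrains. Celf2 -/- replicate 10 and Celf2 +/- replicate 7 made the groups overlap (log2 0.24, SE 0.10, edgeR adjusted p = 0.690). Notch1, the main receptor of radial glia, was at 102, 84.3 and 75.7 CPM in Celf2 -/- hemibrains, against 82.6, 75.0 and 70.0 CPM in Celf2 +/- hemibrains. Celf2 -/- replicate 2 was again the highest, and the log2 fold change of 0.20 (edgeR adjusted p = 0.791) was 0.08 without it. Notch3, which pericytes and vascular smooth muscle also express, was at 59.3 ± 2.99 CPM in Celf2 -/- and 63.2 ± 4.36 CPM in Celf2 +/- hemibrains (SD, n = 3 each; log2 -0.09, edgeR adjusted p = 0.902).

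The ligands had overlapping groups and intervals that include no change. Dll1, the Delta ligand of newborn neurons and progenitors, was at 30.1, 22.9 and 24.0 CPM in Celf2 -/- hemibrains, against 25.3, 23.3 and 23.6 CPM in Celf2 +/- hemibrains. Celf2 -/- replicate 2 was highest, and the log2 fold change was 0.09 (SE 0.12, edgeR adjusted p = 0.940) with all libraries and -0.04 without it. Dll3, a divergent Delta ligand, was at 10.7 ± 1.22 CPM in Celf2 -/- and 10.7 ± 0.924 CPM in Celf2 +/- hemibrains. Jag1, a Jagged ligand also made by vessels, had a log2 fold change of -0.15 (95% interval -0.50 to 0.20).

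The nuclear partner of Notch and a modifier of the receptor had values of opposite sign, both with overlapping groups. Rbpj was at 30.7, 29.6 and 36.4 CPM in Celf2 -/- hemibrains, against 26.8, 26.4 and 30.6 CPM in Celf2 +/- hemibrains. Its groups overlapped through Celf2 +/- replicate 11 (log2 0.21, SE 0.12, edgeR adjusted p = 0.795), and reads from annotated Rbpj pseudogenes may be counted with it. Lfng, a Fringe glycosyltransferase that tunes which ligands Notch answers to, was at 34.55, 27.6 and 31.0 CPM in Celf2 -/- hemibrains, against 38.5, 30.2 and 33.1 CPM in Celf2 +/- hemibrains. Its lowest library was Celf2 -/- replicate 4 and its highest Celf2 +/- replicate 6 (log2 -0.13, SE 0.12, edgeR adjusted p = 0.896).

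Of the Notch target genes, Hes5 and Hey1 had negative values and Hes1 a positive one. Hes5, the target most restricted to neural progenitors, was at 31.7, 19.3 and 31.6 CPM in Celf2 -/- hemibrains, against 37.8, 28.4 and 32.2 CPM in Celf2 +/- hemibrains. As for Lfng, Celf2 -/- replicate 4 was lowest and Celf2 +/- replicate 6 highest. The log2 fold change of -0.26 (SE 0.19, edgeR adjusted p = 0.853) was -0.05 without Celf2 -/- replicate 4. Hey1 was at 26.9, 25.1 and 24.0 CPM in Celf2 -/- hemibrains, against 29.9, 29.8 and 25.2 CPM in Celf2 +/- hemibrains. For Hey1, Celf2 -/- replicate 2 lay above the lowest Celf2 +/- library (log2 -0.16, SE 0.11, edgeR adjusted p = 0.844). Hes1 was the least abundant target at 8.36 ± 1.65 CPM in Celf2 -/- and 7.81 ± 1.91 CPM in Celf2 +/- hemibrains (SD, n = 3 each; log2 0.10, edgeR adjusted p = 0.960).

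Promoter windows were searched for GTGGGAA, letters of the site that RBPJ binds, on both strands. RefSeq windows of GRCm38.p6, from 250 bases before to 50 after an annotated start, were at hand for 28 of the 33 members. The letters occurred in windows of 4 of these 28 genes, Tnc, Hes5, Lfng and Mfge8, against 7.24% of all genes with a window and 6.38% of all windows. A match is a description and not a shown site. Shown are Hes5 and Lfng, which had their lowest and highest libraries in common, and Tnc, the member with the smallest p. Each is printed 5′ to 3′ on the strand of its gene, with GTGGGAA or its reverse complement in capitals.
Hes5, chr4:154960673-154960972, plus strand: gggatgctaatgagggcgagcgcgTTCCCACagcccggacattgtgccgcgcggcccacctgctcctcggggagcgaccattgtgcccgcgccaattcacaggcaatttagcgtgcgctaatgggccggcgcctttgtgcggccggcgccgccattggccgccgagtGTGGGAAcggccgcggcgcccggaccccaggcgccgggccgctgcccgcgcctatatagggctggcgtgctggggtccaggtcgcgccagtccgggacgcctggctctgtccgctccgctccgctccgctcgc
Lfng, chr5:140607091-140607390, plus strand: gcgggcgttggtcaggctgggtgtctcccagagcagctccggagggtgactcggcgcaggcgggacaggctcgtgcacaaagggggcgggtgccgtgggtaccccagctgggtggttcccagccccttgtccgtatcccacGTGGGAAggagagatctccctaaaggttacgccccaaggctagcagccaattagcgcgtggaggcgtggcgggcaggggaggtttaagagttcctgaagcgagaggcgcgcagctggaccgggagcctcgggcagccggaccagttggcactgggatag
Tnc, chr4:64046887-64047186, minus strand: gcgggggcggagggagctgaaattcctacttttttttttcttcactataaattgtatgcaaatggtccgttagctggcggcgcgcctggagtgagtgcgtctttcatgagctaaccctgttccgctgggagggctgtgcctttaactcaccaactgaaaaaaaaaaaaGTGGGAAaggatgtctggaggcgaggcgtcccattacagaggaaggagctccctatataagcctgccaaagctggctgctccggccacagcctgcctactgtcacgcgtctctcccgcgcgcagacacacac
In Hes5 the motif began 83 bases before the start on the gene's strand, with a second copy on the opposite strand beginning 226 bases before it. In Lfng it began 109 bases before the start and in this Tnc window 82. Hes5, Lfng and Mfge8 had negative fold changes, with intervals that include no change, and Tnc a positive one. None of these 4 genes was called, and a link between the letters and the fold changes was not tested.

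Transcription factors of neural progenitors had intervals that include no change, with 4 of 5 positive and a median log2 fold change of 0.09. Sox2, the stem cell factor and most abundant of them per length, was at 149, 118 and 117 CPM in Celf2 -/- hemibrains, against 129, 116 and 115 CPM in Celf2 +/- hemibrains. The groups overlapped, and the log2 fold change of 0.09 (SE 0.10, edgeR adjusted p = 0.914) was -0.03 without Celf2 -/- replicate 2. Its relatives Sox1 and Sox3 were at 0.12 and 0.02, and Sox9, a factor of gliogenesis, at 0.09. Pax6, the patterning factor of cortical radial glia, was at 35.2, 30.4 and 36.5 CPM in Celf2 -/- hemibrains, against 39.6, 39.7 and 35.5 CPM in Celf2 +/- hemibrains. For Pax6, Celf2 -/- replicate 10 lay above Celf2 +/- replicate 11 (log2 -0.17, SE 0.11, edgeR adjusted p = 0.823).

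The Id genes, whose proteins dimerize with bHLH factors but bind no DNA, and the Gli genes were not called either. Id4 was at 121, 118 and 109 CPM in Celf2 -/- hemibrains, against 116, 109.6 and 107.5 CPM in Celf2 +/- hemibrains (log2 0.06, SE 0.07, edgeR adjusted p = 0.926). Its interval of 0.931 to 1.17 for the fold change was among the narrower ones. Id1 was at 33.9, 16.7 and 20.2 CPM in Celf2 -/- hemibrains, against 24.7, 25.3 and 24.4 CPM in Celf2 +/- hemibrains. The Celf2 -/- values thus lay on both sides of the Celf2 +/- values, with a coefficient of variation of 38.5%, the highest of any member, against 1.98% among Celf2 +/- hemibrains. Id3 had a log2 fold change of -0.09. Gli3, largely a repressor in the dorsal telencephalon, was at 18.4, 16.0 and 18.9 CPM in Celf2 -/- hemibrains, against 16.5, 16.6 and 16.2 CPM in Celf2 +/- hemibrains (log2 0.11, SE 0.12, edgeR adjusted p = 0.909). Gli2, the main activator, had a log2 fold change of -0.02 and overlapping groups.

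**Figure D3:**
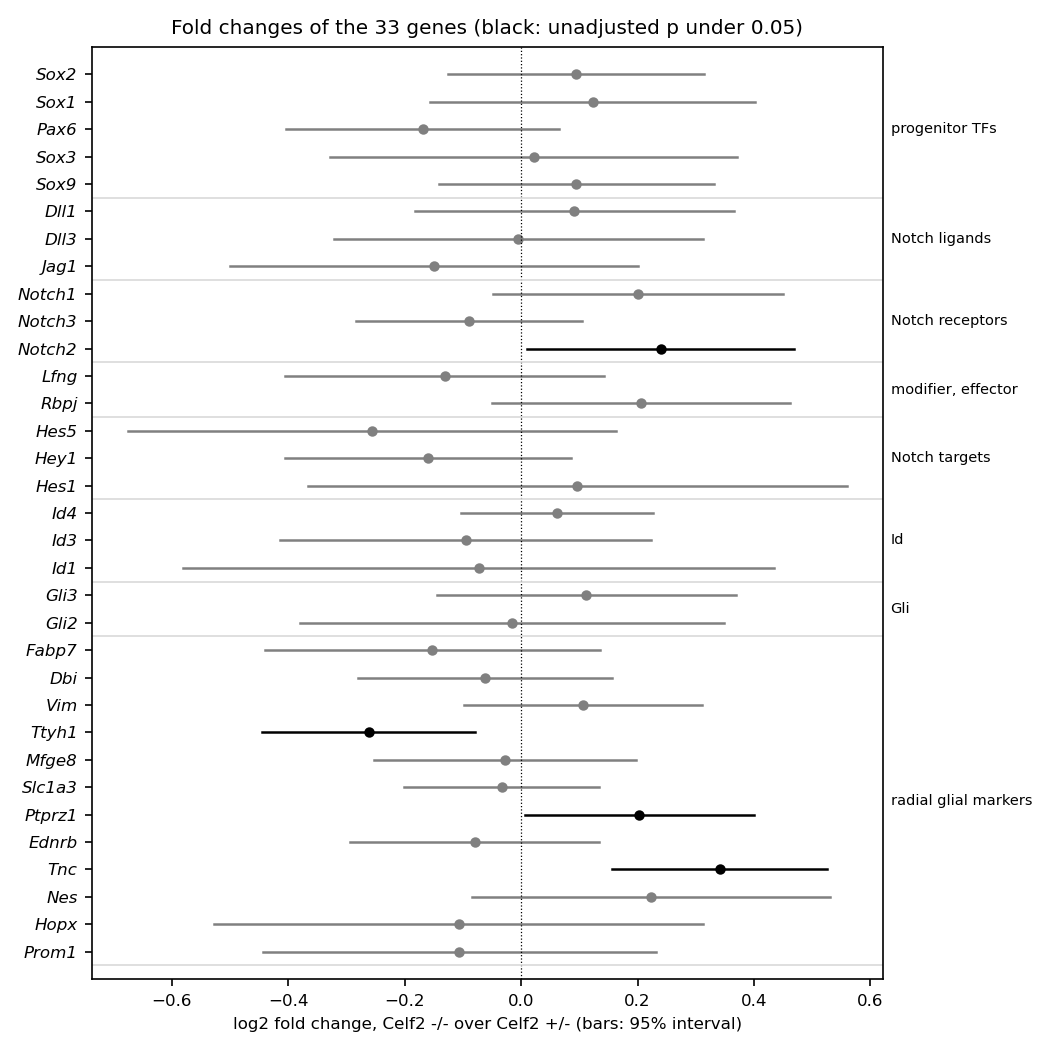
Log2 fold change, Celf2 -/- over Celf2 +/-, of the 33 genes with 95% intervals from the edgeR fit, ordered by role, with genes at an unadjusted p under 0.05 in black. Intervals of 29 of 33 genes include 0, and the others are Tnc (0.34), Notch2 (0.24), Ptprz1 (0.20) and Ttyh1 (-0.26).

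Across libraries the members varied together in part, and not along the genotypes. Celf2 +/- replicate 6 held the highest value for 12 members and Celf2 -/- replicate 2 for 11, whereas Celf2 +/- replicate 11 held the lowest for 12. The median deviation of the members from their mean log2 CPM was 0.10, 0.02 and -0.07 in Celf2 -/- replicates 2, 4 and 10 and 0.11, -0.04 and -0.10 in Celf2 +/- replicates 6, 7 and 11. The 2 genotypes thus spanned nearly the same range. In Celf2 +/- replicate 6 the members of up to 3428 bases deviated by 0.18 and the longer ones by 0.02. All tested genes of up to 1138 bases deviated by 0.13 in that library and by -0.06 in Celf2 +/- replicate 11. Among short genes, the direction in Celf2 +/- replicates 6 and 11 was thus not particular to the members. Elsewhere the members departed from genes of like length. In Celf2 +/- replicate 11 the longer members deviated by -0.13 and all tested genes from 6350 bases by 0.02. In Celf2 -/- replicate 2 the members of up to 3428 bases deviated by 0.10 and all tested genes of up to 1138 bases by 0.003. Single genes departed most in 1 library: Hes5 in Celf2 -/- replicate 4 (-0.61), Hopx in Celf2 -/- replicate 10 (-0.57), and Id1 in Celf2 -/- replicates 2 (0.52) and 4 (-0.50).

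**Figure D4:**
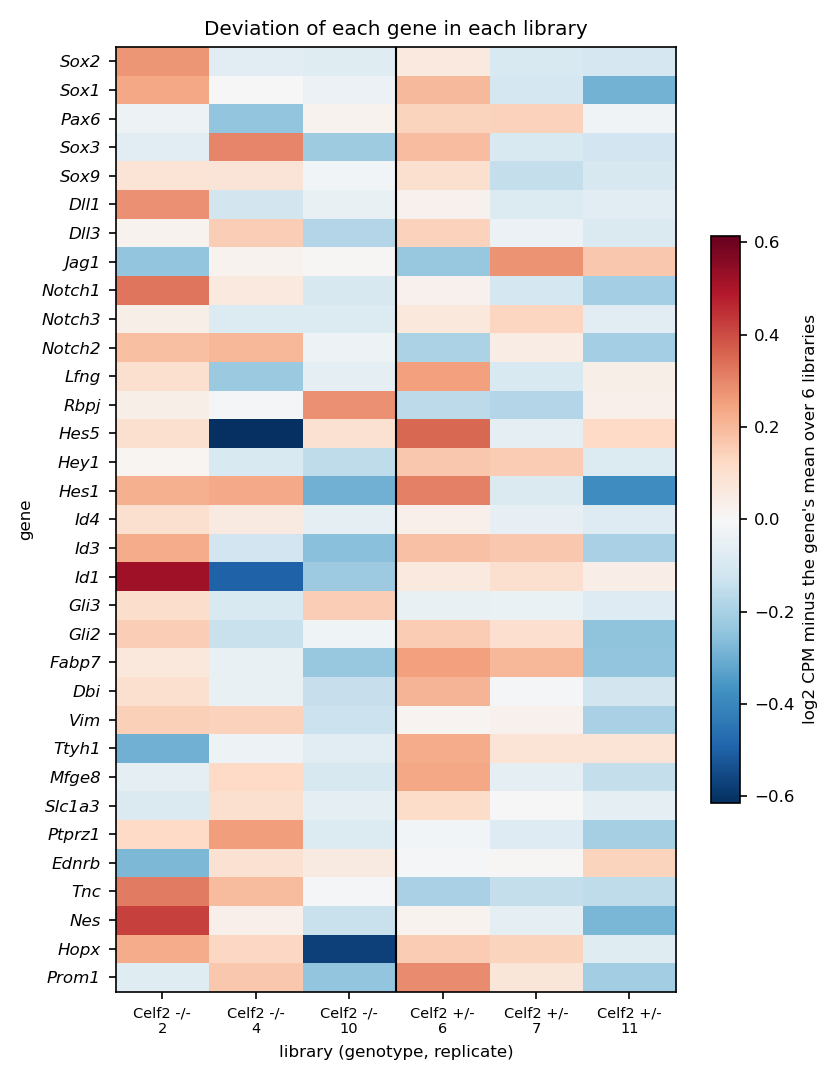
Log2 CPM of each gene minus its mean over the 6 libraries, with Celf2 -/- libraries left of the black line and Celf2 +/- libraries right of it. Red (high) columns stand out for Celf2 -/- replicate 2 and Celf2 +/- replicate 6 and blue (low) ones for Celf2 -/- replicate 10 and Celf2 +/- replicate 11, so each genotype holds a high and a low library.

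Fold changes of the members were higher for longer genes. Of the 16 members longer than the median of 3428 bases, 9 were positive (median log2 fold change 0.10), and of the 17 others 6 were positive (median -0.06). Chosen after the values were seen, the Spearman correlation of fold change with length was 0.46 over the 33 members and 0.23 over all 15925 genes tested, points that share the same 6 libraries. All tested genes were split into 10 bins of length. In the shortest bin, up to 1138 bases, the median was -0.07 and 33.3% were positive, whereas in the longest bin, from 6350 bases, it was 0.08 and 69.9% were positive. The longest bin deviated by 0.03, 0.03 and 0.06 in Celf2 -/- replicates 2, 4 and 10 and by -0.10, -0.03 and 0.02 in Celf2 +/- replicates 6, 7 and 11. With the trend on length removed in each library, log2 fold changes were 0.28 for Tnc, 0.16 for Notch2, 0.13 for Ptprz1, 0.12 for Notch1 and -0.26 for Ttyh1. Tnc and Ttyh1 were then the 2 members left at an unadjusted p under 0.05 (adjusted p = 0.651 and 0.642 in edgeR).

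**Figure D5:**
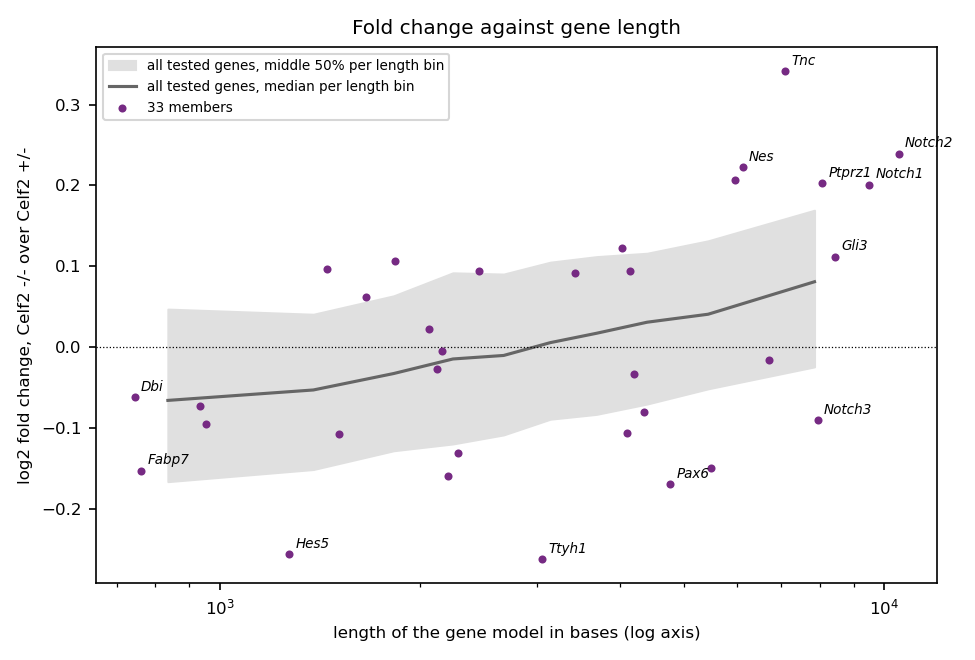
Log2 fold change, Celf2 -/- over Celf2 +/-, against the length of the gene model (log axis), with the 33 members as points and the median and middle 50% of all tested genes in 10 bins of length as line and band. The line climbs from -0.07 in the shortest bin to 0.08 in the longest, and Tnc, Notch2, Nes, Rbpj, Ptprz1 and Notch1 lie above 0.17, the upper edge of the band in the longest bin.

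Other genes of the same pathways gave 0 calls over all genes tested. As background, 49.7% of all tested genes had positive values, and at an unadjusted p under 0.05 4.13% were higher and 2.93% lower in Celf2 -/- hemibrains. Of 39 further Notch pathway genes tested, 25 were positive (median log2 fold change 0.04), with 4 higher and 0 lower in Celf2 -/- hemibrains at an unadjusted p under 0.05. The groups did not overlap for the co-activator Ep300 (log2 0.25, edgeR adjusted p = 0.630). Of 18 further hedgehog genes 8 were positive (median -0.01), and Gpr161, a ciliary receptor that restrains the pathway, stood at 0.39 (edgeR adjusted p = 0.482). Of 23 BMP pathway genes and partners of Id proteins, 14 were positive (median 0.03), with the shared effector Smad4 at 0.28 and the E protein Tcf4 at 0.17. Of 30 further radial glia and neural stem cell genes, 21 were positive (median 0.06), with 4 higher and 0 lower at an unadjusted p under 0.05. Fgfr1, a growth factor receptor of cortical progenitors, was at 117, 112 and 107 CPM in Celf2 -/- hemibrains, against 83.7, 82.5 and 92.2 CPM in Celf2 +/- hemibrains. Its groups did not overlap (log2 0.38, SE 0.08, edgeR adjusted p = 0.368), and those of Nfix, a factor of radial glial maturation, did not either (log2 0.36, edgeR adjusted p = 0.496).

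Radial glial genes are shared with other cells, so lists of neighbouring cell types were read in the same libraries. Astrocytes express Ttyh1, Slc1a3, Fabp7, Ednrb and Mfge8, which had negative values, and also Sox9, Id4, Vim, Tnc and Ptprz1, which had positive ones. Of 15 genes on the astrocyte list, 14 had negative values (median -0.17). At an unadjusted edgeR p under 0.05, 5 of the 15 were lower and 0 higher, against 2.93% and 4.13% of all genes. After adjustment 0 of the 15 were called. The summed level of the list was 2192 to 2762 CPM in Celf2 -/- and 2824 to 3228 CPM in Celf2 +/- hemibrains. It was lowest in Celf2 -/- replicate 2, where Ttyh1, Slc1a3 and Ednrb were lowest too but Fabp7 and Mfge8 were not. All 7 tested genes of 8 for intermediate progenitors had positive values (median 0.33), with summed levels of 157 to 206 CPM in Celf2 -/- and 128 to 158 CPM in Celf2 +/- hemibrains. Cycling cell genes had a median of 0.10, with 13 of 15 positive and sums of 319 to 409.8 CPM in Celf2 -/- and 323 to 344 CPM in Celf2 +/- hemibrains. Pericyte genes, beside Notch3, had 6 of 10 positive and sums of 163 to 203 CPM in Celf2 -/- and 156 to 206 CPM in Celf2 +/- hemibrains. Endothelial genes, beside Jag1 and Id1, had 5 of 10 positive and sums of 245 to 301 CPM in Celf2 -/- and 244 to 279 CPM in Celf2 +/- hemibrains. Meningeal fibroblast genes had 5 of 10 positive and sums of 364 to 468 CPM in Celf2 -/- and 220.2 to 535 CPM in Celf2 +/- hemibrains, lowest in Celf2 +/- replicate 6. All 12 tested hindbrain and cerebellum genes of 13 had negative values (median -2.39). Sums of this list were 28.3 to 63.3 CPM in Celf2 -/- and 70.8 to 202 CPM in Celf2 +/- hemibrains. At an unadjusted edgeR p under 0.05, 6 of the 12 were lower and 0 higher, against 2.93% and 4.13% of all genes. For 7 of the 12, all lower, the groups did not overlap, against 6.47% of all genes. After adjustment 0 of the 12 were called. Oligodendrocyte lineage genes had 1 of 10 positive (median -0.15, sums 394 to 492 CPM in Celf2 -/- and 437 to 517 CPM in Celf2 +/- hemibrains), microglial genes 5 of 10 (116 to 144 CPM in Celf2 -/- and 119 to 139 CPM in Celf2 +/- hemibrains) and ependymal and choroid plexus genes 9 of 10 (573 to 825 CPM in Celf2 -/- and 600.4 to 851 CPM in Celf2 +/- hemibrains). Neuronal genes had 4 of 10 positive and sums of 7968 to 8404 CPM in Celf2 -/- and 7763 to 8725 CPM in Celf2 +/- hemibrains. The markers with a count of 0 in at least 1 library were Neurog1, at 0 in Celf2 -/- replicate 2 and in all Celf2 +/- hemibrains, and Hoxa5, at 0 in Celf2 -/- replicate 2. The part of these cell types in the values of the 33 genes was not tested.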

How the data were processed

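RNA of 6 newborn mouse hemibrains was measured by sequencing. The authors deposited whole-number counts per gene symbol with a gene length. Per the labels' protocols, a stranded total-RNA kit was used on TRIzol RNA, whereas the molecule label says poly(A) RNA. Per the submitters' processing notes, CASAVA, cutadapt, STAR, Picard, bedtools, MACS2, mm9 and hg19 were named, with no role; the sources used here give no counting tool or strand setting. Exons of 8 of the 33 genes overlap an opposite-strand gene in GENCODE M21, among them Hes5, Hopx and Ttyh1, and their counts may include it. Exons of 2 others, Sox1 and Notch2, overlap a gene on the same strand, and their counts may be affected too.

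Libraries of 28831997 to 36531980 counts were compared with edgeR 4.0.16 in R 4.3.3 (filterByExpr, TMM factors, robust quasi-likelihood test, Benjamini-Hochberg over 15925 genes). The standard error is the fold change divided by the root of F. Every pair of libraries differed by more than sampling noise (smallest chi-square per gene 13.4). Alternatives were DESeq2 1.42.0, limma-voom (limma 3.58.1), other scalings, no filter, Rn45s left out, each library left out and, chosen after seeing the data, an offset for gene length. The steps were tested on simulated counts, where 40 of 100 genes changed 1.5-fold and 71 of 100 changed 2-fold were called, with 17 false calls in all. Changes as small as those of the members were not simulated. Members and lists were chosen with earlier results of these data known. Values in every library are given for the 6 members with the smallest p in each direction, those without overlap and the most abundant of each role; Id1, Hopx and others were added after their values were seen. Of each pathway list, up to 2 genes per direction at an unadjusted p under 0.05 are named; a result under this rule is not reported here. P-values weigh the difference between groups against the spread between these samples, which edgeR estimates partly from all genes together.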

Additional observations from a re-analysis of the deposited data

How the results depend on the processing

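The number of the 33 genes called was 0 in all 14 alternatives run, and the lowest adjusted p of any member in any of them was 0.109 (Tnc, DESeq2). The median over the members lay between -0.11 with library size alone, where that of all genes was -0.09, and 0.07 without Celf2 +/- replicate 6; it was -0.06 without Celf2 +/- replicate 11 and 0.06 without Celf2 -/- replicate 10. Signs turned for members near 0. With library size alone, Sox2 was at -0.0011, Sox3 at -0.058, Dll1 at -0.0040 and Id4 at -0.026, and with the length offset Dll3 was at 0.013 and Dbi at 0.0063. When single libraries were left out, log2 fold changes ranged from -0.026 to 0.15 for Sox2, -0.14 to 0.13 for Sox3, -0.037 to 0.17 for Dll1, -0.086 to 0.080 for Dll3, -0.056 to 0.30 for Hes1, -0.42 to 0.13 for Id1, -0.24 to 0.0051 for Id3, -0.13 to 0.065 for Gli2, -0.094 to 0.015 for Slc1a3, -0.23 to 0.024 for Prom1, -0.25 to 0.10 for Hopx, -0.10 to 0.096 for Mfge8, -0.15 to 0.029 for Ednrb and -0.13 to 0.035 for Dbi. The cause was not tested. The other 18 members kept their sign in every alternative, but their size also moved when single libraries were left out, for example 0.017 to 0.27 for Sox1, -0.29 to -0.062 for Fabp7, -0.21 to -0.030 for Lfng, -0.29 to -0.045 for Jag1, 0.035 to 0.19 for Vim, 0.11 to 0.28 for Rbpj and 0.12 to 0.29 for Ptprz1. The 4 members at an unadjusted p under 0.05 became 2 with upper-quartile factors, library size alone, the length offset or without Celf2 -/- replicate 4, and 6 without Celf2 -/- replicate 10. No paired analysis was possible because the groups share no replicate number.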
